A study of Mus musculus with 8 samples.

Results

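This account follows 45 genes of the vessel lining through bulk RNA sequencing of the mouse auditory nerve: 31 genes that mark endothelial identity and 14 genes of the blood-labyrinth barrier, its transporters and its tight junctions. The members were chosen by gene symbol as a list of well-known endothelial and barrier genes, with earlier results of these data known. All 45 were found among the 15035 genes of the deposited table. Auditory nerves were dissected at postnatal day 21 from 4 wild-type mice (libraries 1 to 4) and 4 mice labelled Mef2c heterozygote (libraries 5 to 8), and both cochleas of a mouse went into 1 library. Strain, sex, litter and the Mef2c allele are not given in the sources used here, nor whether the loss of 1 copy is in every cell. Mef2c encodes a MADS-box transcription factor of neurons, muscle and endothelium.

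Endothelial cells line every vessel of the cochlea. Where they form the blood-labyrinth barrier, tight junctions seal the gaps between them, solute carriers bring in glucose and amino acids, and efflux pumps return lipophilic compounds to the blood. Their identity is set by transcription factors of the ETS and SOXF families, and their growth and quiescence by the VEGF, TIE and BMP9 receptors. In whole tissue, fewer endothelial cells and less RNA per cell cannot be told apart.

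The label of the groups was examined first. Mef2c had 439, 498, 509 and 402 normalized counts in wild-type libraries 1 to 4 and 583, 705, 735 and 649.8 in heterozygote-labelled libraries 5 to 8. Every heterozygote-labelled library was thus above all 4 of wild type, against the direction of the label, and each direction below is between libraries as labelled. The values are per gene, so a deleted exon was not examined. Libraries held an estimated 13363365 to 21507072 reads. Wild-type library 1 and heterozygote-labelled library 5 had 12 and 7.6 normalized counts of Xist, against 5175 to 8615 in the others, and no label gives sex. Wild-type library 1 also stood apart over the members, with a median absolute deviation from the gene mean of 0.28 on the log2 scale, against 0.10 to 0.23 in the other 7 libraries. It was the highest library for 12 of the 45 members and the lowest for another 12. Wild-type library 4 had the next largest deviation, 0.23, and was the lowest library for 14 members.

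The endothelium was present in all 8 libraries. Its defining markers Pecam1, Cdh5, Kdr, Tie1, Cldn5, Emcn and Egfl7 were far above the value of 3 reads (2.37 to 3.89 normalized counts) in every library, from 317.8 for Egfl7 in heterozygote-labelled library 8 to 3682 for Cldn5 in wild-type library 1. Levels were compared between genes per kilobase of the longest annotated transcript, in wild type (mean ± SD, n = 4). Bsg, which encodes basigin, a chaperone of monocarboxylate transporters that many cell types express, was highest at 8247 ± 954 normalized counts per kilobase. Cldn5, the main claudin of endothelial tight junctions, followed at 1803 ± 562, and Itm2a, a membrane protein enriched in barrier endothelium, at 1454 ± 443. The brain-type transporters came next, with Slco1c1, which carries thyroxine, at 919.6 ± 135 and Slc2a1, the glucose transporter GLUT1, at 848 ± 156. All genes were measured in the same libraries, so these SDs do not test the order of any 2 genes. Among the identity genes the most abundant per kilobase were Ly6c1 at 549.7 ± 87.7 and Ly6a at 534 ± 119, 2 members of a family of near-identical genes whose reads the counting could split. Transcription factors ran from 103 ± 10.1 for Ets1 and 101 ± 18.3 for Sox18 to 14.2 ± 10.6 for Sox7. Sox17 had 76.8 ± 20.9, Fli1 59.8 ± 12.4 and Erg 57.4 ± 7.80 normalized counts per kilobase. Robo4 at 42.9 ± 14.9, Clec14a at 51.4 ± 10.3 and Nos3 at 58.1 ± 4.86 lay in the same range. Plvap, the diaphragm protein of fenestrated vessels that barrier endothelium lacks, stood at 92.2 ± 20.9, well under Cldn5. Several members are not confined to endothelium (Bsg, Tjp1, Ocln, Slc7a5, Slc2a1, Pltp and Ets1 are expressed widely), so their values mix cell types.

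Genotypes were then compared with limma-trend on log2(normalized count + 1) over all 14870 genes tested, with Benjamini-Hochberg adjustment. Of 45 members, 0 passed an adjusted p of 0.05, and the smallest adjusted p of a member was 0.266. Over all genes tested, 12 passed (0.0807%), of which 0.00672% higher and 0.074% lower, and with 1 library left out this count ran from 0 (when library 2, 4 or 8 was dropped) to 221 (without wild-type library 3). At an unadjusted p under 0.05 there were 7 members (15.6%), against 14.1% of all genes, so the members' share was near the background. Of the 7, 3 were higher in the heterozygote-labelled libraries and 4 lower, against 6.72% and 7.34% of all genes. Leaving out wild-type library 3 made it 14 members (31.1%, against 23.0% of all genes). Leaving out wild-type library 4 or heterozygote-labelled library 7 made it 2 (4.44%, against 9.76% and 10.8% of all genes). The genotypes did not overlap in 2 members (4.44%), against 7.26% of all genes, and both were higher (3.4% of all genes were higher and 3.86% lower without overlap). The median log2 fold change of the 45 members was 0.05, beside 0.02 for all genes tested. It was positive for 28 of the 45 members and for 7771 of the 14870 genes tested, the background for the counts of signs below. In the authors' deposited table, 0 of the 45 had an FDR under 0.05 (1.61% of genes did), and the same 3 higher and 4 lower members had a p under 0.05.

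These comparisons also bound how large a difference could be. For 43 of the 45 members the 95% interval of the difference lay within 2-fold in either direction (95.6%, against 80.9% of all genes tested), and for 29 within 1.5-fold (64.4%, against 51.8%). The exceptions to the 2-fold bound were Emcn, with an interval of -1.22 to -0.21 on the log2 scale, and Sox7, with -0.72 to 1.78. A p that misses the threshold does not show that the genotypes were alike.

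**Figure D1:**
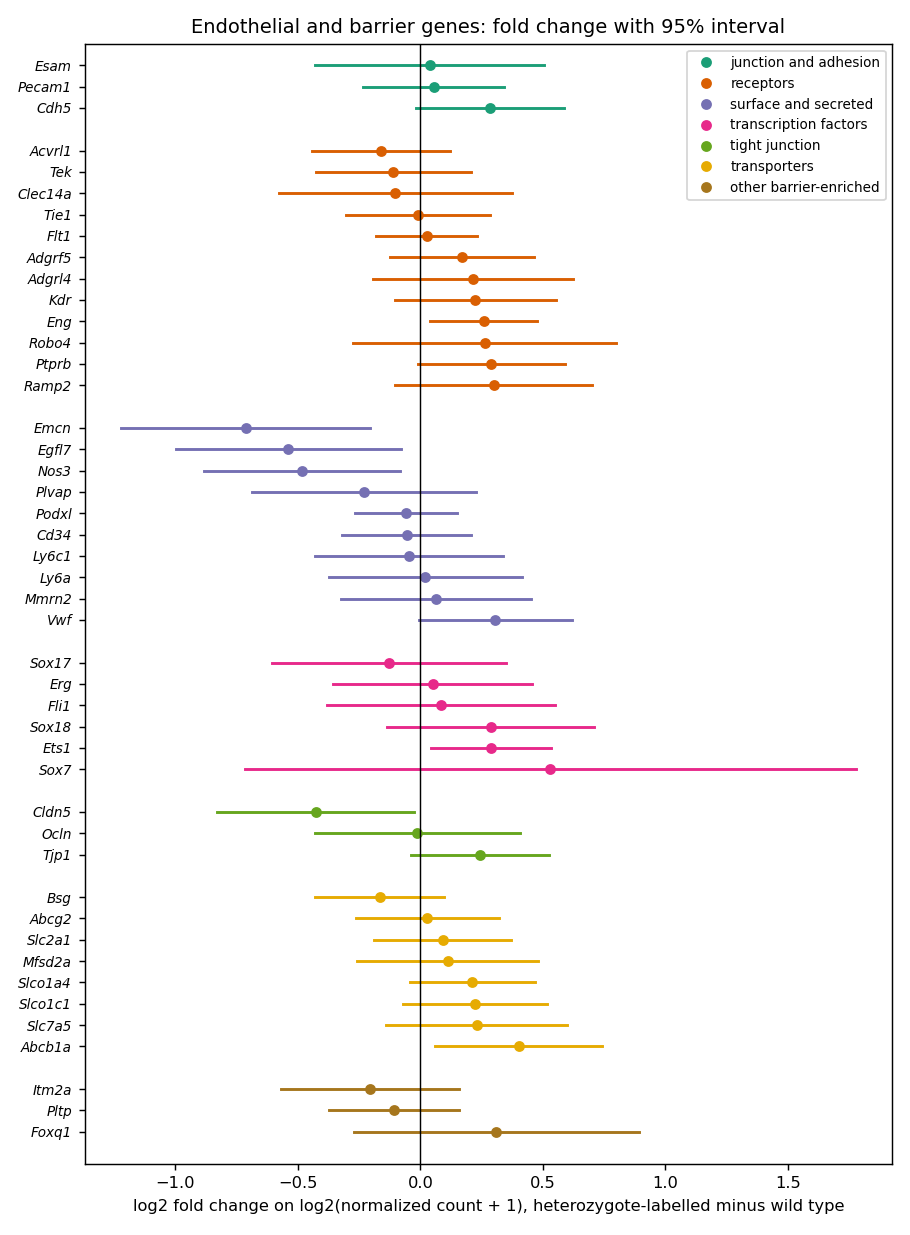
Log2 fold change (points) with 95% interval (lines) of each of the 45 members, heterozygote-labelled minus wild type on log2(normalized count + 1), grouped by role and ordered by fold change, n = 4 libraries a group. Intervals that exclude 0 belong to Emcn, Egfl7, Nos3 and Cldn5 on the lower side and Eng, Ets1 and Abcb1a on the higher side, and 0 members passed after adjustment.

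Among junction and adhesion molecules that hold endothelial cells together, 0 of 3 passed, and all 3 had positive log2 fold changes in limma-trend. Pecam1, the platelet and endothelial adhesion molecule CD31, had 541, 597, 696 and 521 normalized counts in wild type and 532, 694, 634 and 579 in the heterozygote-labelled libraries. These ranges overlapped almost fully, with a log2 fold change of 0.05 (SE 0.13). Cdh5, which encodes VE-cadherin of the adherens junction, had 1081, 961, 1114 and 759.7 in wild type and 1067, 1414, 1156 and 1105 in the heterozygote-labelled libraries. Wild-type library 4 was lowest and heterozygote-labelled library 6 highest, and the log2 fold change of 0.28 (SE 0.14) did not pass (limma-trend adjusted p = 0.375). Esam, an adhesion molecule of endothelial tight junctions, had a log2 fold change of 0.04 (SE 0.21). In the authors' deposited table its log2 ratio was -0.005, of the opposite sign, while the other 44 members had the same sign in both.

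Among 12 receptors and receptor partners, 8 had a positive and 4 a negative log2 fold change, and their median was 0.19. Eng encodes endoglin, a co-receptor for BMP9 and TGF-beta, and had 986, 914, 1062 and 911 normalized counts in wild type against 1232, 1073, 1239 and 1089 in the heterozygote-labelled libraries. All 4 heterozygote-labelled libraries lay above all 4 wild-type libraries, by a narrow margin between wild-type library 3 and heterozygote-labelled library 6. The log2 fold change was 0.26 (SE 0.10), with an unadjusted p of 0.0246 (limma-trend adjusted p = 0.306). Eng (chr2:32646595-32682669, mm10, GENCODE M21) overlaps the antisense gene Fpgs in the annotation, and whether counting used the strand is not given in the sources used here. Acvrl1, the ALK1 receptor that acts with endoglin, had a log2 fold change of -0.16 (SE 0.13), of the opposite sign.

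Neither VEGF receptor passed. Kdr, the main signalling receptor for VEGF-A, had 465, 341, 343 and 401 in wild type and 533, 464, 399.6 and 411 in the heterozygote-labelled libraries, overlapping ranges with a log2 fold change of 0.22 (95% interval -0.11 to 0.55). Flt1, which binds VEGF-A as a decoy, was the most tightly bounded member, with a log2 fold change of 0.03 and a 95% interval of -0.18 to 0.23. Tek and Tie1, the receptors of the angiopoietin pathway, had log2 fold changes of -0.11 (SE 0.15) and -0.01 (SE 0.13). Ptprb encodes VE-PTP, a phosphatase that restrains TIE2, and had 754, 1040.1, 1117 and 813 in wild type and 1141, 1046, 1044 and 1277 in the heterozygote-labelled libraries. Wild-type libraries 1 and 4 were low, library 2 was just under the range of the other genotype and library 3 lay within it, and the log2 fold change was 0.29 (SE 0.14, limma-trend adjusted p = 0.365). Ramp2, which turns the calcitonin receptor-like receptor into an adrenomedullin receptor, had 240.1, 242, 281 and 338 in wild type and 329, 421, 358 and 255 in the heterozygote-labelled libraries, with a log2 fold change of 0.30 (SE 0.19). The ranges overlapped, and Ramp2 shares annotated sequence with its neighbour Vps25 on the same strand. The guidance receptor Robo4, the lectin Clec14a and the adhesion receptors Adgrl4 and Adgrf5 had log2 fold changes of 0.26, -0.10, 0.22 and 0.17, with adjusted p from 0.567 to 0.844 in limma-trend.

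Surface and secreted proteins held 3 of the 4 lower members at an unadjusted p under 0.05 (30.0% of this group, against 7.34% of all genes lower), and 7 of the 10 genes in this group had a negative log2 fold change (median -0.06). Emcn (chr3:137341067-137432185) encodes endomucin, a sialomucin of capillaries and veins. It had 1504, 1311, 1115 and 1398 normalized counts in wild type and 947, 451, 1135 and 874 in the heterozygote-labelled libraries. Heterozygote-labelled library 6 was by far the lowest and library 7 lay just within the wild-type range, so the genotypes overlapped. The log2 fold change of -0.71 (SE 0.23) was the largest decrease in value among the members, with an unadjusted p of 0.00978 (limma-trend adjusted p = 0.266). Without heterozygote-labelled library 6 it was -0.43. That library also had the highest sum over 5 stria vascularis markers, 15661 normalized counts against 3113 to 6015 in the other 7, and Dct, a melanin synthesis enzyme of strial intermediate cells, had 8095 there against 15.7 to 992.3. The part of strial tissue in the Emcn value was not tested.

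Nos3, the endothelial nitric oxide synthase, had 238, 232, 221 and 268 in wild type and 224, 171, 155 and 144 in the heterozygote-labelled libraries. Library 5 lay within the wild-type range and libraries 6 to 8 below it. Its log2 fold change was -0.48 (SE 0.18, unadjusted p = 0.0221, limma-trend adjusted p = 0.297). Nos3 (chr5:24364810-24384474) overlaps the antisense gene Atg9b, with the same limit on strand as for Eng. Egfl7 (chr2:26580014-26593120) encodes a secreted protein of the vessel matrix and hosts miR-126. It overlaps Gm20532 on its own strand and Agpat2 on the other, so the limit on strand holds for it too. Egfl7 had 879, 456, 443 and 573 in wild type and 456, 418, 374 and 318 in the heterozygote-labelled libraries, so that wild-type library 1 alone stood high while libraries 2 and 3 were close to heterozygote-labelled library 5. Its log2 fold change of -0.54 (SE 0.21, unadjusted p = 0.0248, limma-trend adjusted p = 0.306) was -0.33 without wild-type library 1. Neither Nos3 nor Egfl7 passed the adjusted threshold.

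The remaining surface and secreted genes gave both signs. Vwf, which encodes von Willebrand factor of the Weibel-Palade bodies, had 713, 657, 902 and 611 in wild type and 1021, 746, 937 and 844 in the heterozygote-labelled libraries. Wild-type library 3 overlapped the heterozygote-labelled range, and the log2 fold change was 0.31 (SE 0.14, limma-trend adjusted p = 0.361). Podxl, a sialomucin of the endothelial lumen and a relative of Cd34, was the most even member in wild type, with a coefficient of variation of 2.40%. Podxl and Cd34 had log2 fold changes of -0.06 and -0.06, each with an SE of at most 0.12. Mmrn2, a ligand of Clec14a, had 0.06, Ly6c1 -0.04, Ly6a 0.02 and Plvap -0.23 on the log2 scale.

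**Figure D2:**
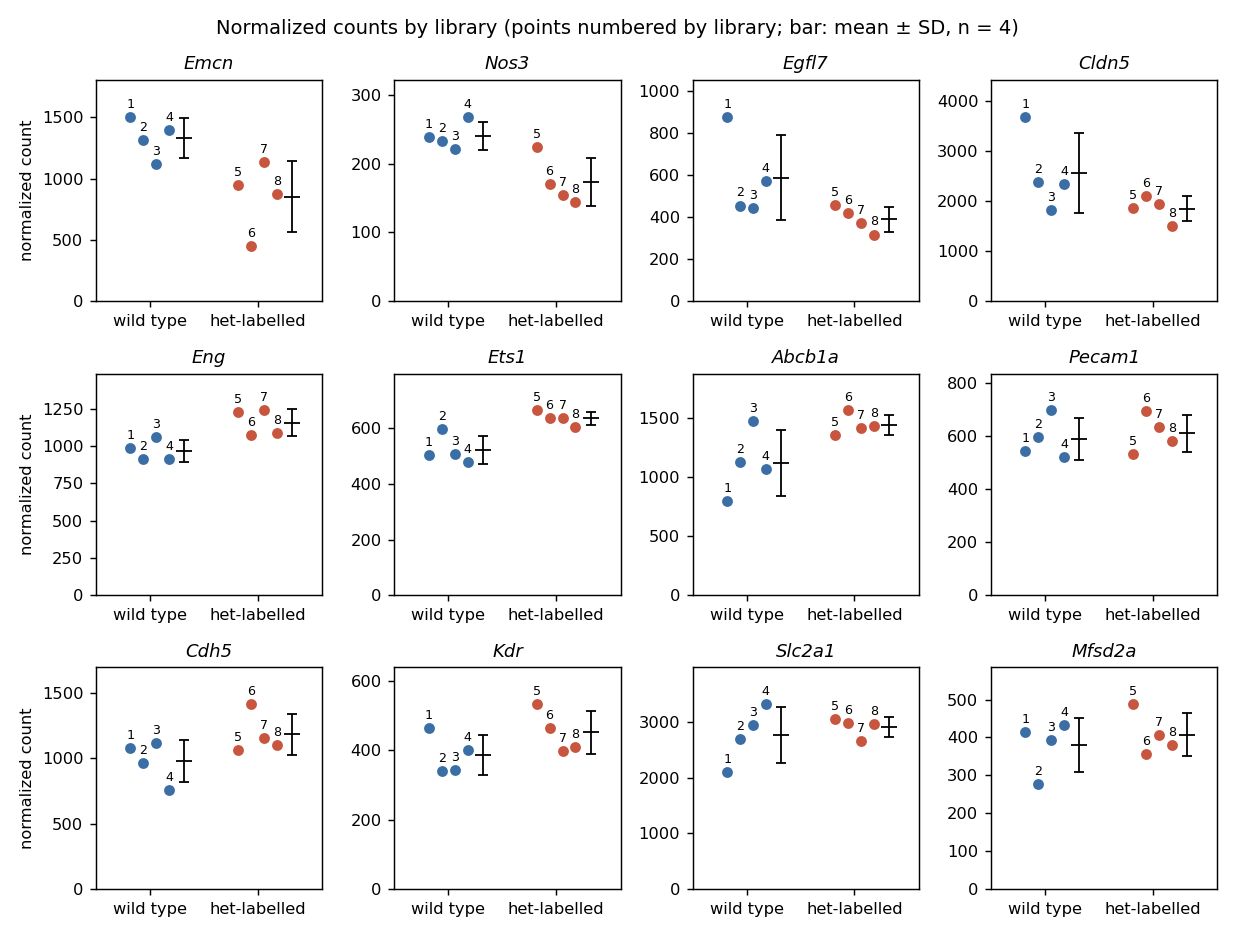
Normalized counts (y axis, from 0) of 12 members in each library, wild type in blue and heterozygote-labelled in red, with each point numbered by library and the mean ± SD (n = 4) in black. Emcn is lowest in library 6, Egfl7 and Cldn5 are highest in library 1, and Eng and Ets1 are the panels without overlap.

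Of the 6 transcription factors, 5 had a positive log2 fold change, with a median of 0.19. Ets1 (chr9:32636221-32757820), an ETS factor also made by lymphocytes and stromal cells, had 505, 597, 509.6 and 479.5 in wild type and 665, 638, 638 and 607 in the heterozygote-labelled libraries. All heterozygote-labelled libraries were above all wild-type libraries, with 596.9 in wild-type library 2 next to 606.6 in library 8. The log2 fold change was 0.29 (SE 0.11, unadjusted p = 0.0249, limma-trend adjusted p = 0.306). The endothelial ETS factors Erg and Fli1, which maintain endothelial identity, had log2 fold changes of 0.05 (SE 0.19) and 0.08 (SE 0.21). The SOXF factors gave 0.29 for Sox18, -0.13 for the arterial factor Sox17 and 0.53 for Sox7. Sox7 was the lowest and most variable member, from 11.7 to 79.6 normalized counts in wild type (coefficient of variation 74.9%).

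Promoter sequence was set beside these values, because ETS factors bind GGAA cores and Mef2c binds an AT-rich MEF2 site. RefSeq windows on GRCm38.p6, of 250 bases before to 50 after a start, matched 25 of the 45 members by symbol, with 34 windows. The letters GGAAGT, on either strand, were in 11 of the 34 windows (32.4%) from 9 members, against 23.8% of 32851 windows of all genes. The MEF2 consensus, on either strand, was in 1 of the 34 (2.94%), against 3.19% of all windows, and that window is at an alternative start of Erg. A match is a description of these letters and not a binding site. Windows are shown for Emcn, Cldn5, Egfl7 and Eng, 4 of the 7 members with an unadjusted p under 0.05, and for Erg with the MEF2 match. The Egfl7 start shown holds 1 GGAAGT match. Another Egfl7 start (chr2:26580833-26581132) holds 2, and a further one (chr2:26586386-26586685) holds 0. The Abcb1a window (chr5:8566841-8567140), not shown, holds neither motif. It lies far upstream of the GENCODE M21 start of Abcb1a (chr5:8660077), and the sequence at that start was not searched. No member window held both motifs. Capitals mark GGAAGT or its reverse complement in Egfl7 and Eng, and the MEF2 match in Erg.
Emcn (chr3:137340828-137341127, plus strand): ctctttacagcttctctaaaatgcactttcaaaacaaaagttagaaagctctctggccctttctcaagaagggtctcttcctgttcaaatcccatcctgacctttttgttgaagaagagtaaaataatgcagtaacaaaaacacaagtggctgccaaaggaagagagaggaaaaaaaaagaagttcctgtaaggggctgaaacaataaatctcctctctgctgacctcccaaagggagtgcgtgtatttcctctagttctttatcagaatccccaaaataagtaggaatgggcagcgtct
Cldn5 (chr16:18776597-18776896, plus strand): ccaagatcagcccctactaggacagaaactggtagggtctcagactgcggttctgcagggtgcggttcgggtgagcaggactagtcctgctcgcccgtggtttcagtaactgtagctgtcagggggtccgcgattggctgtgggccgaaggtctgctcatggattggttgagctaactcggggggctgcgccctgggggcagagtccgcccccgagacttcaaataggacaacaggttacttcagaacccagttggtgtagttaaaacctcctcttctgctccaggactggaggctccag
Egfl7 (chr2:26583615-26583914, plus strand): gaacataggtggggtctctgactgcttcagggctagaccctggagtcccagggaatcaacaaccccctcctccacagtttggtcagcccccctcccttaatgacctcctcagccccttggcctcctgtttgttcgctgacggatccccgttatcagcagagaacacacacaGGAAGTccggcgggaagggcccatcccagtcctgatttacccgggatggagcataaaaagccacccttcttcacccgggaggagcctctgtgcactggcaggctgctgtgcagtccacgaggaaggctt
Eng (chr2:32646345-32646644, plus strand): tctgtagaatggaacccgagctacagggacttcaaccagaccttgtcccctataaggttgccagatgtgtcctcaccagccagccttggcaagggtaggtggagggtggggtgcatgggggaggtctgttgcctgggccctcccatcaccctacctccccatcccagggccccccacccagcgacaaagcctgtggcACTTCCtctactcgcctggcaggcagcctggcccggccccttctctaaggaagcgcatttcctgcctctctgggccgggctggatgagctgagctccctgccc
Erg (chr16:95530316-95530615, minus strand): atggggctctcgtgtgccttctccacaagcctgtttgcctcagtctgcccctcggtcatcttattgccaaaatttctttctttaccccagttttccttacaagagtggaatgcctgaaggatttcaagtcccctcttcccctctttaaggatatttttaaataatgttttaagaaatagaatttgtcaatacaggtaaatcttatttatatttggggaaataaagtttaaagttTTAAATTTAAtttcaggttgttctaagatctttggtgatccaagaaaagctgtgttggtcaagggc

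Barrier genes were compared as the second group. Of 14, 0 passed the adjusted threshold, 2 had an unadjusted p under 0.05 in limma-trend (14.3%, against 14.1% of all genes), and 9 had a positive log2 fold change with a median of 0.10. In the tight junction, the 3 members took different signs. Cldn5 (chr16:18776847-18778262) had 3682, 2371, 1811 and 2348 normalized counts in wild type and 1861, 2109, 1935 and 1498 in the heterozygote-labelled libraries. Wild-type library 1 was far above the rest and wild-type library 3 lay below 3 of the 4 heterozygote-labelled libraries. Its log2 fold change was -0.43 (SE 0.18, unadjusted p = 0.0393, limma-trend adjusted p = 0.334), and it was -0.23 without wild-type library 1. Ocln, a tight junction protein that epithelia also make, had a log2 fold change of -0.01 (SE 0.19). Tjp1, the junction scaffold ZO-1 found in most cells with junctions, had 2476, 3031, 3557 and 2570.3 in wild type and 2901, 3491, 3408 and 3901 in the heterozygote-labelled libraries. These overlapped, and the log2 fold change was 0.24 (SE 0.13, limma-trend adjusted p = 0.401).

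Of the 8 transporter genes, 7 had a positive log2 fold change, with a median of 0.16. Abcb1a (chr5:8660077-8748575), the P-glycoprotein efflux pump, had 796, 1129.5, 1482 and 1071 in wild type and 1362, 1567, 1417 and 1433 in the heterozygote-labelled libraries. Wild-type libraries 1, 2 and 4 were below all heterozygote-labelled libraries and wild-type library 3 lay within their range. Its log2 fold change was 0.40 (SE 0.16, unadjusted p = 0.0253, limma-trend adjusted p = 0.307). Without wild-type library 1 it was 0.25. Abcb1a has a close paralog, Abcb1b, so some of its reads could be split between the 2 genes. Abcg2, the other main efflux pump, had a log2 fold change of 0.03 (SE 0.13).

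Organic anion transporters were higher in value without passing. Slco1a4 had 1306, 1219, 1392 and 994 in wild type and 1298, 1516, 1340.1 and 1499.9 in the heterozygote-labelled libraries, and its reads could be split with near copies of the Slco1a family. Slco1c1, which astrocytes make as well, had 3183, 3030.3, 3189 and 2288 in wild type and 3535, 2796, 3266 and 4045 in the other genotype. For both the ranges overlapped and wild-type library 4 was the lowest of all 8, with log2 fold changes of 0.21 (SE 0.12) and 0.22 (SE 0.14). Nutrient transporters overlapped between genotypes. Slc2a1 had 2102, 2696, 2941 and 3316 in wild type and 3049, 2971, 2651 and 2955 in the heterozygote-labelled libraries, whose range lay inside that of wild type (log2 fold change 0.09, 95% interval -0.19 to 0.37). Mfsd2a, which carries lysophospholipids and restrains transcytosis at the barrier, had 415, 278, 394 and 434 in wild type and 488, 356, 407 and 379 in the other genotype, overlapping values with a log2 fold change of 0.11 (95% interval -0.26 to 0.48). Slc7a5, the large neutral amino acid transporter LAT1, had 0.23 (SE 0.17) and Bsg -0.17 (SE 0.12) on the log2 scale. Itm2a, the phospholipid transfer protein gene Pltp and the forkhead factor Foxq1 had log2 fold changes of -0.21, -0.11 and 0.31, none of them past the threshold (adjusted p from 0.572 to 0.696 in limma-trend).

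**Figure D3:**
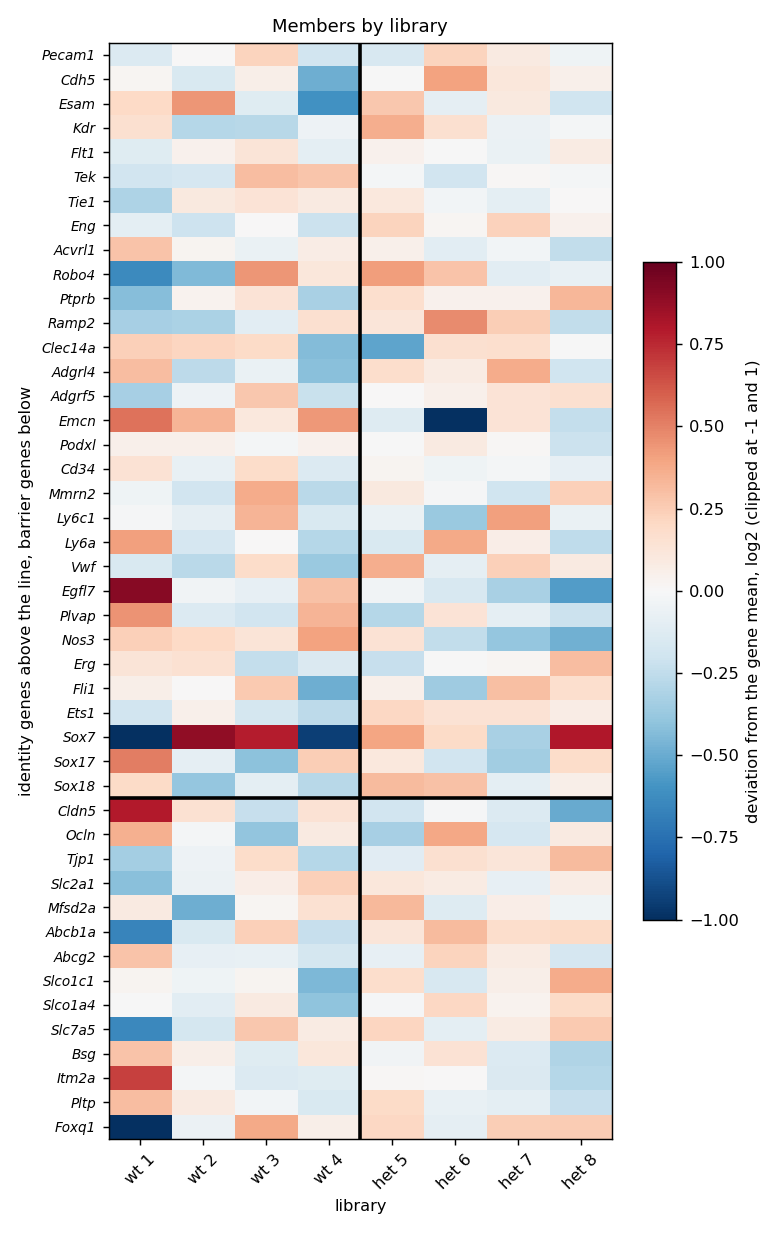
Deviation of each member (rows) from its mean over the 8 libraries (columns) on log2(normalized count + 1), red above and blue below, with identity genes above the horizontal line and barrier genes below it. Wild-type library 1 carries strong deviations in both directions, and no library is high or low across all members.

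Identity and barrier genes were also read as groups in each library, as the mean deviation of their genes from the gene mean on the log2 scale. Identity genes had 0.002, -0.025, 0.078 and -0.13 in wild-type libraries 1 to 4 and 0.066, 0.002, 0.022 and -0.018 in heterozygote-labelled libraries 5 to 8. Barrier genes had -0.017, -0.069, 0.020 and -0.067 in wild type and 0.042, 0.069, 0.007 and 0.016 in the heterozygote-labelled libraries. Both groups overlapped between genotypes. The difference of identity minus barrier genes was 0.015 ± 0.052 in wild type and -0.015 ± 0.043 in the heterozygote-labelled libraries (mean ± SD, n = 4 each), a shift of -0.03 that was smaller than the spread between libraries in either genotype. No p is given for these means, because the members were chosen with results of these data known.

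**Figure D4:**
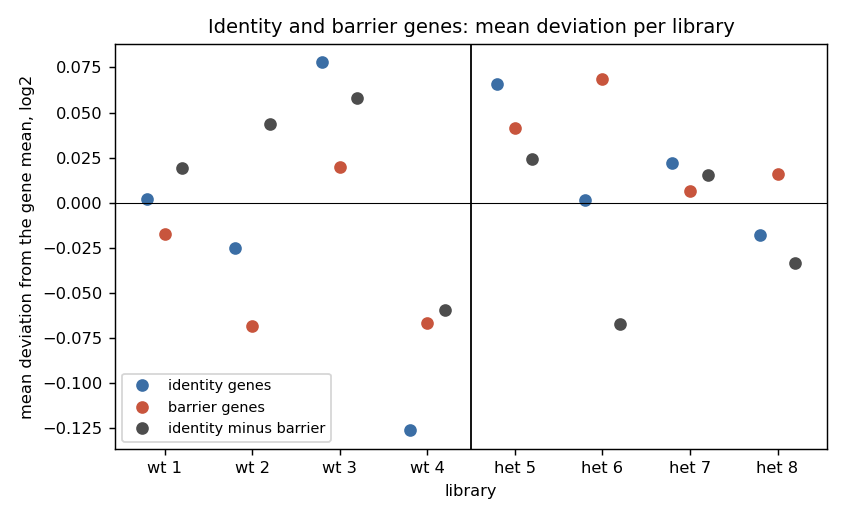
Mean deviation from the gene mean (y axis, log2) of the 31 identity genes, the 14 barrier genes and the difference of both in each library (x axis), wild type left of the line. The points of the genotypes overlap in all 3 series, and wild-type library 4 is lowest for identity genes at -0.13.

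Transcript length moved with the fold changes of the members as it did over all genes. Across the 45 members longest transcript length and log2 fold change had a rank correlation of 0.36, beside 0.43 over 14517 genes with a length. Genes are not independent replicates, and these values describe the libraries only. In the 15 shortest members (844 to 3242 bases, Cldn5 and Egfl7 among them) log2 fold changes had a median of -0.06, in the middle 15 it was 0.08, and in the 15 longest (4234 to 11911 bases, Ptprb, Vwf, Tjp1, Ets1 and Abcb1a among them) it was 0.22. All genes in those length ranges had medians of -0.09, 0.03 and 0.14. Positive log2 fold changes were found in 6, 11 and 11 of 15 members, beside 2296 of 6416, 1335 of 2458 and 3582 of 4787 genes. After a correction for length, Cldn5 had a log2 fold change of -0.28 and an unadjusted limma-trend p of 0.0596, and Ets1 had 0.18 and 0.129. Emcn (-0.74), Nos3 (-0.54), Egfl7 (-0.44), Eng (0.24) and Abcb1a (0.30) remained under an unadjusted limma-trend threshold of 0.05, and 0 members passed after adjustment. Ramp2 joined them with a log2 fold change of 0.44 and an unadjusted limma-trend p of 0.0336. That made 6 members (13.3%, against 11.1% of all genes with a length).

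**Figure D5:**
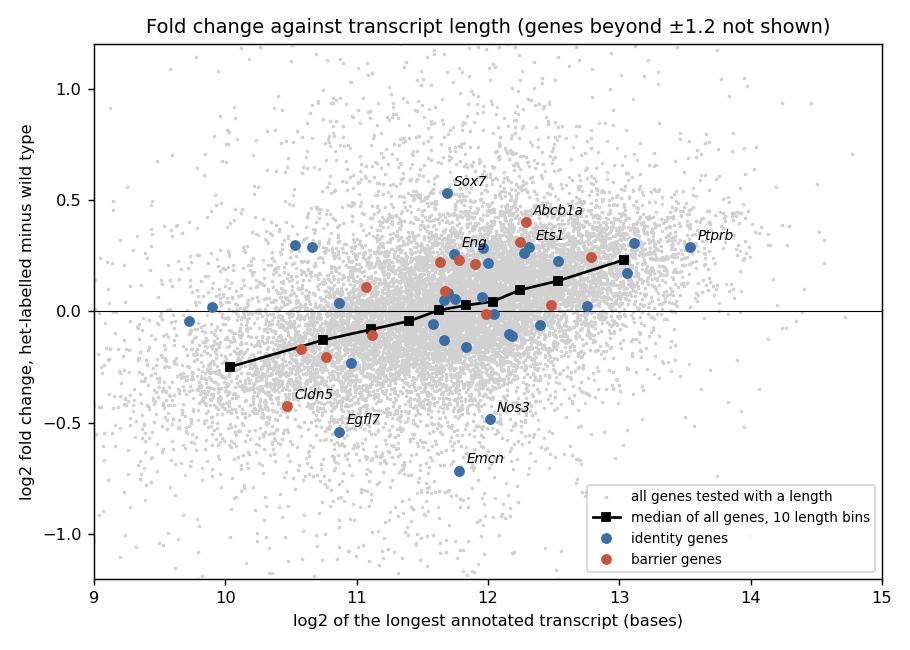
Log2 fold change (y axis) against log2 of the longest annotated transcript in bases (x axis), with identity genes in blue, barrier genes in red, all tested genes in grey and the median of all genes in 10 length bins in black. The members follow the slope of all genes, with Emcn and Nos3 below it at middle lengths.

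Other genes of the pathways that act on these cells were read from the same fit, with the members left out. Of 85 tested genes in 8 lists, 0 passed the adjusted threshold in limma-trend, and 9 had an unadjusted p under 0.05 (10.6%, against 14.1% of all genes), 8 of them higher. In the list of VEGF, angiopoietin and apelin genes, 0 of 13 passed and 2 had an unadjusted p under 0.05. Apln, a ligand made by tip cells, was lower in value at 99.0 ± 41.4 against 175 ± 38.7 normalized counts in wild type (SD, n = 4 each; log2 fold change -0.88, limma-trend adjusted p = 0.27). Vegfc, the main lymphatic growth factor, had a log2 fold change of 0.48 (SE 0.26). Nrp2, which encodes the VEGF-C co-receptor neuropilin 2, was named after its values were seen, and so was Klf2 below. Nrp2 was higher in all 4 heterozygote-labelled libraries than in any wild-type library, with a log2 fold change of 0.48 (limma-trend adjusted p = 0.162).

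Notch and arteriovenous genes had 0 of 15 past the threshold and a median of 0.05. Notch1, the main Notch receptor of endothelium, and its ligand Dll4 had log2 fold changes of 0.38 (SE 0.13) and 0.42 (SE 0.25). Of 14 tested genes of the Wnt pathway that builds the barrier, 0 passed, with a median of 0.12. The ligand Wnt7b had -0.29 and the transcription factor Tcf7 0.40 on the log2 scale. In the list of flow-response and MEF2-pathway genes, 0 of 8 passed. Klf4, a transcription factor of endothelial quiescence that many other cells make, had 475, 336, 472 and 324 in wild type and 512, 931, 819.9 and 669 in the heterozygote-labelled libraries, which did not overlap. Its log2 fold change was 0.85 (SE 0.20, unadjusted p = 0.00111, limma-trend adjusted p = 0.178), while Klf2, its partner in the same flow response, was at 0.00 (SE 0.15). Thbd, the anticoagulant thrombomodulin, had 0.27 (SE 0.20).

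The vessel basement membrane list had positive log2 fold changes in all 9 genes, with a median of 0.32. Of these, 0 passed the adjusted threshold, 4 had an unadjusted p under 0.05 (44.4%, against 14.1% of all genes), and 3 did not overlap between genotypes (33.3%, against 7.26% of all genes). Hspg2, the proteoglycan perlecan, had 2715, 2730, 3122 and 2899 in wild type and 4034, 3944, 3264 and 4403 in the heterozygote-labelled libraries, a log2 fold change of 0.44 (SE 0.10, limma-trend adjusted p = 0.178). Lamc1, the laminin gamma 1 chain, had 0.37 (SE 0.13). Schwann cells and fibroblasts make these proteins too, and after the correction for transcript length Hspg2 stood at 0.13. The lists for other tight junction genes, caveolae and endothelial activation had 0 of 15, 0 of 6 and 0 of 5 genes past the threshold and medians of 0.00, -0.08 and 0.03. Cldn10 and Marveld3 in the first had log2 fold changes of -1.21 and 0.35. Cavin2 and Tfrc in the second had -0.20 and -0.12, and Icam1 and Icam2 in the third 0.29 and -0.25.

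Markers of the cells next to the vessels are given beside these values, as sums of normalized counts over each list. Pericytes and smooth muscle (13 of 14 markers in the table) summed to 9011 to 12414 in wild type and 11034 to 11403 in the heterozygote-labelled libraries. Of the 13, 9 had a positive log2 fold change, and their median was 0.05. Cspg4 and Notch3 had log2 fold changes of 0.36 and 0.26, higher in the heterozygote-labelled libraries without overlap between genotypes. Cspg4 was the marker of this list with a positive value under the unadjusted limma-trend threshold of 0.05. Myh11 had a log2 fold change of 0.05. Acta2 and Tagln, contractile genes of arteriolar muscle, had log2 fold changes of -0.47 and -0.43 (adjusted p = 0.308 for both, limma-trend), and were the markers of this list with a negative value at an unadjusted p under 0.05. Lymphatic endothelium markers (5 of 6) summed to 2264 to 3024 and 2435 to 3229, with 0.40 for Flt4 and 0.24 for Reln on the log2 scale. Of these 5, 4 had a positive log2 fold change (median 0.12). Macrophage markers (8 of 8) summed to 2111 to 3150 and 1990 to 2668, with -0.38 for Cd163 and -0.39 for Cd68. Of these 8, 5 had a negative and 3 a positive log2 fold change (median -0.09). Prox1 and Reln of the lymphatic list are also made by cells of the ear other than vessels. Blood cell markers varied widely within both genotypes: erythroid markers (7 of 7) summed to 10171 to 34445 in wild type and 8543 to 29310 in the heterozygote-labelled libraries, and platelet markers (3 of 5) to 238.3 to 594.3 and 215.9 to 479.4. Hbb-bt and Slc4a1 had log2 fold changes of -0.50 and 0.59, and Pf4 and Gp1bb -0.28 and -0.88. Wild-type library 1 was highest in the erythroid sum, in the platelet sum and in Cldn5, Egfl7 and Itm2a. The part of blood content in those values was not tested.

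Markers of the other tissues of the sample were read in the same way. Neutrophil markers (4 of 6 in the table) summed to 106.3 to 2346 in wild type and 649.1 to 6030 in the heterozygote-labelled libraries. The highest wild-type sum was in library 1, where Ltf had 2176 against 29.0 to 237.4 in the other wild-type libraries. Of the 4, 3 were higher without overlap between genotypes (75.0%, against 3.4% of all genes). S100a8 and Ngp had log2 fold changes of 4.09 and 3.73 (limma-trend adjusted p = 0.0763 and 0.092). S100a8 passed in 5 of 17 alternative settings and Ngp in 3. Oligodendrocyte markers (5 of 5) summed to 22646 to 28348 and 11118 to 18121 without overlap. Of these 5, 4 had a negative and 1 a positive log2 fold change (median -1.28). Mog and Mobp fell, with log2 fold changes of -1.41 and -1.47 (limma-trend adjusted p = 0.0354 and 0.0495), and both calls were lost when library 2, 4 or 8 was dropped. Mog passed in 14 of 17 alternative settings and Mobp in 8. Astrocyte markers (5 of 5) summed to 19142 to 29017 and 10494 to 17400, also without overlap, with -0.99 for Gfap and -0.73 for Aqp4. Again 4 of the 5 had a negative and 1 a positive log2 fold change (median -0.50). Fibroblast markers (6 of 6) summed to 25060 to 50192 and 35559 to 50120, with Col1a1 at 1.14, which passed in 3 of the 17, and Col1a2 at 0.44. Of the 6, 5 had a positive and 1 a negative log2 fold change (median 0.21). Osteoblast markers (6 of 6) summed to 2502 to 11233 and 5516 to 13587, with Bglap2 at 1.05 and Ibsp at 1.09. Strial markers (5 of 8) summed to 4054 to 5298 in wild type and 3113 to 15661 in the heterozygote-labelled libraries. The 2 highest sums were in libraries 6 and 7. Of these 5, 3 had a positive and 2 a negative log2 fold change. Esrrb had 0.92 (SE 0.48) and Dct 2.78 (SE 1.39), and neither passed the adjusted threshold. Schwann cell markers (5 of 5) summed to 104142 to 134836 and 96333 to 135393, and spiral ganglion neuron markers (7 of 7) to 189410 to 257519 and 209593 to 250676. Prx and Egr2 had log2 fold changes of -0.16 and -0.15, and Nefh and Calb2 0.21 and -0.31. None of the listed markers was at 0 in any library, and the part of these tissues in the members' values was not tested.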

How the data were processed

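Each mouse gave 1 directional poly(A) library from 50 ng of RNA, and samples with an RNA integrity number under 7 had been left out, per the labels' protocols. The submitters' processing notes name STAR, Partek, DESeq2 and mm10. The annotation, the counting mode and its use of strand are not given in the sources used here. The authors deposited 1 signal column per library, which, from its values, is read counts per gene after scaling by a size factor. Their deposited p-value, FDR (a p-value adjusted over genes), ratio and log2 ratio compare heterozygote with wild type, per the file headers, and a signed fold change, a score, was not used.

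The value of 1 read was estimated per library from the spacing of low values, and 87.8% to 91.7% of values came out whole (within the rounding to 1 decimal). That is too few for a count model, and none was run. The 14870 genes that reached 10 normalized counts in 4 or more libraries were tested as log2(value + 1) with limma-trend (limma 3.58.1, R 4.3.3) on all 8 libraries, Benjamini-Hochberg adjustment and a threshold of 0.05. Fold changes are on that scale, where the added 1 shrinks differences between low values. They are differences of mean logs and can be larger or smaller than a ratio of means. Sox7 had 0.53, beside a deposited log2 ratio of 0.18. Tables and figures used Python 3.11.15, numpy 2.4.6, pandas 2.3.3 and matplotlib 3.10.9. Transcript lengths are of the longest GENCODE M21 transcript (97.6% of tested genes had one); the length correction is a loess (span 0.5) of each library's deviation. Alternatives were pseudocounts of 0.1 and 10, no filter, upper-quartile and quantile scaling, low Xist as a covariate or left out, the length correction and each library left out. Leaving out wild-type library 1 and heterozygote-labelled library 6 together was added after seeing the data.

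The members and lists were chosen with earlier results of these data known. Values in every library are given for the 14 members with the smallest unadjusted p and for Pecam1, Cdh5, Kdr, Cldn5, Slc2a1, Mfsd2a and Abcb1a. From each other list the 2 genes farthest from a log2 fold change of 0 and any past the threshold are named, and Mef2c. Cspg4, Notch3 and Myh11 of the pericyte and smooth muscle list and Ltf of the neutrophil list were named after their values were seen.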

Additional observations from a re-analysis of the deposited data

Results flagged for a closer look

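In each group of 4, a library was singled out where its gap to the nearest other library passed Dixon's 95% critical share of the group's range. Over 182 such groups, 14 stood out, and chance gives 9.1. Among the members it was 5 of 90, near the 4.5 that chance gives.

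In wild type, Tie1 was low in library 1 (378.9 normalized counts against 501.3 to 516.1, gap ratio 0.892), Itm2a was high there (3690 against 2088 to 2258, 0.894), and Clec14a was low in library 4 (164.3 against 253.9 to 262.1, 0.916). In the heterozygote-labelled libraries, Tek and Foxq1 were low in library 6, with 454.8 against 512.7 to 523 (gap ratio 0.849) and 178.6 against 219.4 to 226.9 (0.845).

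Outside the members, library 6 was high in Thbd (gap ratio 0.896), Esrrb (0.866) and Dct (0.883). Library 7 was high in Slc4a1 (0.893), Col1a2 (0.933) and Bglap2 (0.926). In wild type, library 1 was high in Col1a1 (0.892) and Col1a2 (0.846), and library 2 in Notch1 (0.922).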

How the results depend on the processing

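No member passed the adjusted threshold under any of the 17 alternatives, and the same held for the identity genes, the barrier genes and the 85 pathway genes. The sign of the fold change held in all alternatives for 26 of the 45 members. Over all genes, the count of 12 past the threshold was 7 with quantile scaling, 30 with the correction for transcript length, 30 without wild-type library 1 and heterozygote-labelled library 6, and 0 to 221 with 1 library left out. The 221 came without wild-type library 3. The 7 members at an unadjusted p under 0.05 became 4 without the 2 libraries low in Xist (8.89%, against 13.5% of all genes). With 1 library left out they became 2 to 14 (4.44% to 31.1%, against 7.94% to 23.0% of all genes). For the barrier genes, median log2 fold change (0.10) was 0.0459 without the 2 libraries low in Xist and 0.044 to 0.13 with 1 library left out. The cause was not tested. For the identity genes, median log2 fold change was -0.0034 to 0.075 with 1 library left out. No paired analysis was possible because the library numbers 1 to 8 are not shared between genotypes. With 4 mice a genotype, the median standard error of a member was 0.17 on the log2 scale, which limits the differences that can be told from 0.

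Some signs turned. Without the 2 libraries low in Xist the log2 fold change was -0.022 for Flt1, -0.000804 for Robo4, 0.12 for Clec14a, -0.0196 for Sox7, 0.21 for Ocln, -0.058 for Slc2a1, 0.027 for Icam2, -0.081 for Marveld3, 0.016 for Hbb-bt, 0.033 for Cd68 and 0.0105 for Pf4. With the length correction it was -0.15 for Flt1, -0.053 for Adgrf5, 0.20 for Ly6c1, -0.11 for Abcg2, -0.038 for Reln and 0.012 for Pf4. Without wild-type library 1 and heterozygote-labelled library 6 it was -0.048 for Pecam1, -0.00497 for Flt1, 0.061 for Ly6c1, 0.063 for Sox17, -0.046 for Slc2a1, 0.14 for Hbb-bt and 0.23 for Pf4. With each library left out in turn, the range crossed 0 for Pecam1 (-0.011 to 0.14), Esam (-0.16 to 0.19), Flt1 (-0.012 to 0.073), Tie1 (-0.12 to 0.033), Clec14a (-0.26 to 0.056), Podxl (-0.10 to 0.0014), Mmrn2 (-0.015 to 0.20), Ly6c1 (-0.19 to 0.071), Ly6a (-0.10 to 0.16), Erg (-0.044 to 0.13), Fli1 (-0.066 to 0.22), Sox17 (-0.29 to 0.0197), Ocln (-0.15 to 0.10), Slc2a1 (-0.035 to 0.18), Mfsd2a (-0.033 to 0.18), Abcg2 (-0.041 to 0.13), Icam2 (-0.44 to 0.0504), Marveld3 (-0.029 to 0.63), Tfrc (-0.27 to 0.0072), Slc4a1 (-0.59 to 1.50), Pf4 (-0.55 to 0.018) and Egr2 (-0.31 to 0.021).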
